A study of Rattus with 6 samples.

Results

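The enzymes of the mevalonate pathway, which builds isoprenoid units from acetyl-CoA, were followed in the line H9C2, which was derived from the heart of a rat embryo, with and without overexpression of RBM25. The rows of the read count table whose symbol was Acat2, Hmgcs1, Mvk, Pmvk, Mvd, Idi1, Fdps or Ggps1 were taken in pathway order, which gave 8 genes of 20742 listed. In the authors' table, on the build mRatBN7.2, Hmgcs1, Pmvk and Fdps lie on chromosome 2, Idi1 and Ggps1 on chromosome 17, Acat2 on chromosome 1, Mvk on chromosome 12 and Mvd on chromosome 19. All 8 passed the filter on low counts and are among the 12882 genes tested. Poly(A) RNA was sequenced from 3 libraries of cells that carried a control plasmid and 3 of cells labelled RBM25 overexpression. Both groups are the same cell line, and the labels give no time point, no promoter for the plasmid and no culture of origin, so the replicate spread behind each p-value may be technical. RBM25 is an RNA-binding protein that takes part in selecting splice sites together with the U1 particle of the spliceosome. The comparison asks which genes change in level when it is raised.

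In this pathway Acat2, the cytosolic acetyl-CoA acetyltransferase, joins acetyl-CoA units and Hmgcs1, the cytosolic HMG-CoA synthase, adds a further one. The reductase step that makes mevalonate is not analysed here. Mvk and Pmvk phosphorylate mevalonate, Mvd removes its carboxyl group to give isopentenyl diphosphate, and Idi1 turns this into its isomer. Fdps joins these units to farnesyl diphosphate, the branch point to sterols, dolichol, ubiquinone and farnesylated proteins, and Ggps1 extends it to geranylgeranyl diphosphate, which is attached to many small GTPases. Genes of the pathway are known targets of the transcription factor SREBP2, which is released when sterols in the endoplasmic reticulum run low.

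Of the 8 enzymes, 1 fell past the threshold with RBM25 overexpression, and this was Mvd, whose mean fell by 12.6%. None rose, and 7 did not pass. The threshold was a Benjamini-Hochberg adjusted p under 0.05 in edgeR's quasi-likelihood test over all genes, by which 0.0466% of genes tested were lower and 0.357% were higher. At an unadjusted p under 0.05, 5 of the 8 were lower, as were 4.78% of genes tested. The fold change was below 0 for 7 of the 8, with Idi1 as the exception, and it ran from -0.19 for Mvd to 0.058 for Idi1 on the log2 scale. In 5 of the 8 (Acat2, Mvk, Pmvk, Mvd and Fdps) each RBM25 library was below each control library. The median log2 fold change of the 8 was -0.097, beside -0.0021 for all genes tested. The RBM25 libraries lay wholly below the controls for 7.94% of genes tested, and 51.2% had a fold change below 0. Among the 8131 tested genes at least as abundant in the controls as Ggps1, the least abundant of the 8 in CPM (read counts scaled to library size), the shares were 0.0615%, 9.72% and 55% for lower calls, for RBM25 libraries below the controls and for fold changes below 0.

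Libraries held 25543849 to 33130256 counted reads. Rbm25 itself was higher in each RBM25 library (55.9 to 60.1 CPM) than in any control library (44.5 to 49.2 CPM), a rise of 0.30 ± 0.047 (SE) on the log2 scale (edgeR adjusted p = 0.0011). Leaving out control replicate 2 left Rbm25 short of the threshold (0.28 on the log2 scale, adjusted p by edgeR 0.0842), as did the 3 limma-trend fits on FPKM (0.28 to 0.30, adjusted p = 0.213 to 0.381). Markers of muscle cells were present, among them Casq2 (mean of 329 CPM in controls and 353 CPM with RBM25), Tnnt2 (106 and 109 CPM) and Myod1 (60.4 and 61.5 CPM), while 4 of the 12 listed (Myh7, Myh6, Tnni1 and Actn2) stayed under 1 CPM in each library. The summed muscle markers were at 546 to 562 CPM in controls and 558 to 611 CPM with RBM25. Of the 10 tested none was called by edgeR, 1 was higher at an unadjusted p under 0.05, and Casq2 and Myh6 had no overlap between the groups, both higher with RBM25. Myh6 held only 70 reads over all libraries. Of the 12882 genes tested, 1070 had all RBM25 libraries above all controls. An unadjusted p under 0.05 by edgeR was seen for 1441 of them, in either direction. The part of muscle differentiation in the enzyme levels was not tested. Of the 6 hepatocyte markers, which would mark a tissue known for high sterol synthesis, 4 were listed and all 4 stayed under 1 CPM in each library. Their summed level was 0.196 to 0.55 CPM in controls and 0.501 to 0.515 CPM with RBM25. Summed leukocyte markers were at 38.2 to 41.6 CPM and 37.6 to 42.3 CPM, endothelial markers at 103 to 109 CPM and 101 to 102 CPM, and epithelial markers at 780 to 838 CPM and 756 to 903 CPM. Most of these sums came from Cd14, Eng and Krt7, whereas Pecam1, Cdh5, Epcam and Cdh1 were near 0. In bulk RNA, fewer cells with a transcript and less of it per cell cannot be told apart.

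Acat2 and Hmgcs1 open the pathway. Acat2 was at 704, 684 and 682 CPM in control replicates 1, 2 and 3, and the RBM25 replicates, in the same order, were at 594, 645 and 657 CPM. All RBM25 libraries were lower than all controls, with RBM25 replicate 1 the lowest by far. Its log2 fold change of -0.13 ± 0.033 (SE) did not pass (edgeR adjusted p = 0.0911). Hmgcs1 was at 454, 440 and 452 CPM in the controls and at 424, 435 and 441 CPM with RBM25. The groups overlapped, since RBM25 replicate 3 was above control replicate 2, and the log2 fold change of -0.050 ± 0.030 (SE) did not pass (edgeR adjusted p = 0.568).

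The mevalonate kinase Mvk and the phosphomevalonate kinase Pmvk act one after the other on mevalonate. Mvk was at 107, 113 and 109 CPM in the controls and at 96.8, 102 and 104 CPM with RBM25. Pmvk was at 63.5, 65.7 and 64.0 CPM in the controls and at 56.9, 61.3 and 61.5 CPM with RBM25. For both kinases RBM25 replicate 1 was the lowest library and the groups did not overlap. Neither passed the test, with log2 fold changes of -0.12 ± 0.036 for Mvk and -0.11 ± 0.041 for Pmvk (SE; edgeR adjusted p = 0.145 and 0.315).

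Mvd, the decarboxylase that yields the first isoprene unit, was at 217, 222 and 207 CPM in the controls and at 186, 191 and 187 CPM with RBM25. The lowest control library was above the highest RBM25 library, and the RBM25 libraries lay closer together than the controls, with a mean of 215 ± 7.66 CPM in controls and of 188 ± 2.51 CPM with RBM25 (SD, n = 3). The log2 fold change of Mvd, -0.19 ± 0.033 (SE), passed with an adjusted p of 0.0043 by edgeR, the smallest of the genes called lower. A log2 fold change below that of Mvd was seen in 5.3% of genes tested, so its size was not extreme among all genes. The genes tested include some with few reads and a larger SE, such as Myh6 (SE of 0.41). Mvd did not pass when control replicate 2 was left out (-0.17 on the log2 scale, with an adjusted p of 0.162 by edgeR) and in limma-trend on the authors' FPKM values (adjusted p = 0.173).

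Idi1, the isomerase that acts next, was the 1 enzyme with a fold change above 0. It was at 134, 123 and 126 CPM in the controls and at 132, 133 and 133 CPM with RBM25. The RBM25 libraries lay within a narrow band that control replicate 1 exceeded, so the groups overlapped. Its log2 fold change, 0.058 ± 0.034 (SE), did not pass (edgeR adjusted p = 0.565). Between 7 pairs of consecutive enzymes the ratio of reads was computed within each library, where no scaling enters. The log2 ratio of Mvd to Idi1 was 0.70, 0.85 and 0.72 in control replicates 1, 2 and 3 and 0.49, 0.53 and 0.49 with RBM25. It was lower in all 3 RBM25 libraries, by 0.25 on average, against an SD of 0.084 in controls and of 0.022 with RBM25. The spread with RBM25 is narrower than counting gives. For Idi1 counting alone gives a coefficient of variation of 1.61%, and the measured one with RBM25 was 0.42%. The ratio of Idi1 to Fdps also separated the groups (a log2 difference of 0.15, RBM25 minus control), as did that of Acat2 to Hmgcs1 (-0.077), while the other 4 ratios overlapped. The ratios of Mvd to Idi1 and of Idi1 to Fdps share Idi1, so they are not separate observations. With 3 libraries against 3 an exact permutation test of such a ratio cannot give a p below 0.1. Adjusted over the 7 pairs, the smallest p of that test was 0.233. How often ratios of other gene pairs separate the groups is not given here, so these counts cannot be set beside all genes.

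Fdps and Ggps1 make the prenyl diphosphates. Fdps was at 1151, 1186 and 1175 CPM in the controls and at 1073, 1107 and 1121 CPM with RBM25. All RBM25 libraries were lower, but the log2 fold change of -0.089 ± 0.028 (SE) did not pass (edgeR adjusted p = 0.173). Ggps1 was at 12.6, 13.6 and 11.3 CPM in the controls and at 12.1, 13.2 and 11.3 CPM with RBM25. The groups covered nearly the same range, with a log2 fold change of -0.031 ± 0.085 (SE) that did not pass (edgeR adjusted p = 0.93). Its sign turned without control replicate 2 (0.036) and without RBM25 replicate 3 (0.020). With 316 to 419 reads per library, counting alone gives Ggps1 a coefficient of variation of 5.22%, and the measured one was 9.23% in controls and 7.93% with RBM25. For Fdps, with 29324 to 36336 reads, counting gives 0.546% and the measured values were 1.51% and 2.21%. The SE of the Ggps1 fold change was larger than those of the other 7 enzymes, which were 0.028 to 0.041.

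**Figure D1:**
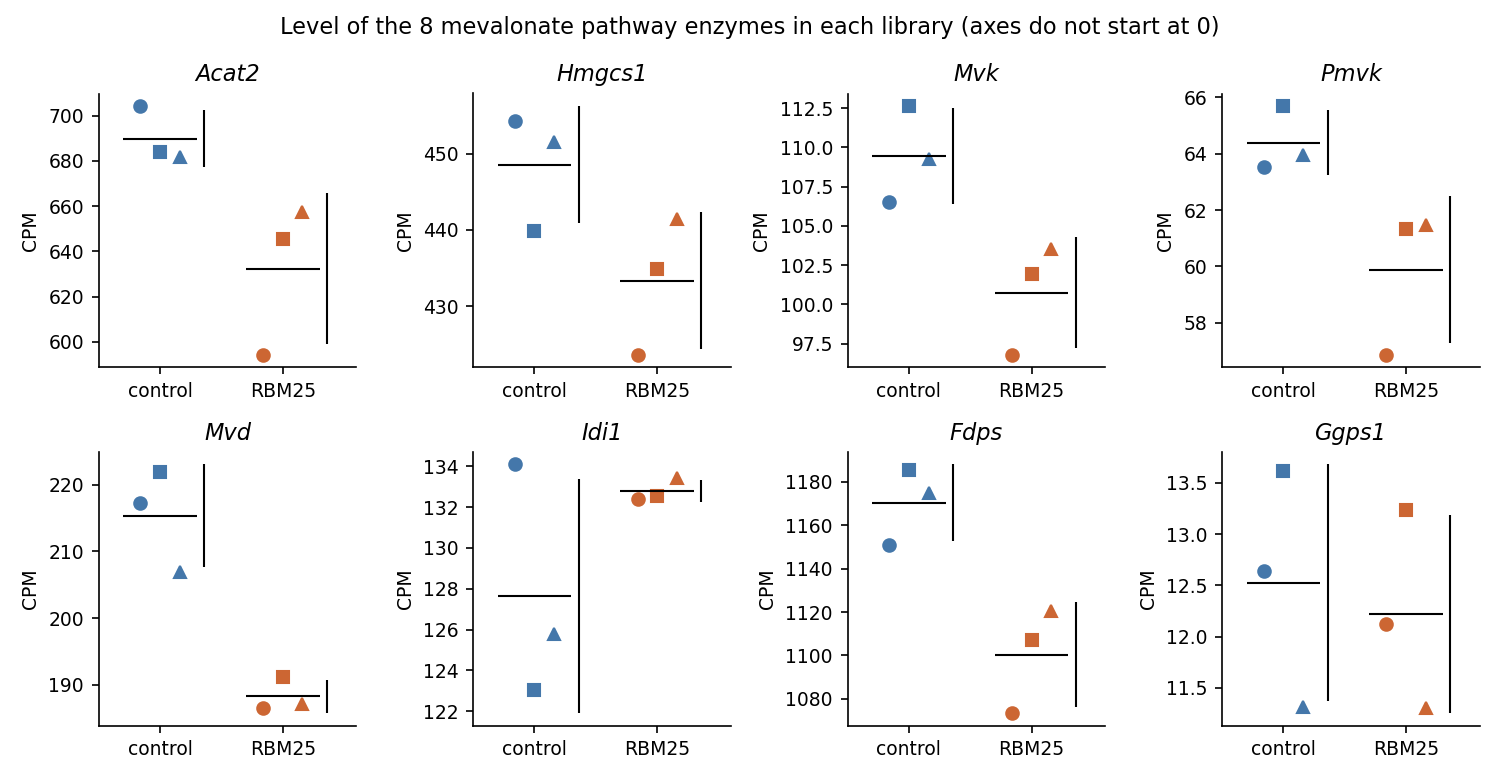
Each panel plots the level of 1 enzyme in CPM (y axis, which does not start at 0) in the control and RBM25 libraries (circle, square and triangle for replicates 1, 2 and 3), with the group mean as a horizontal line and the SD as a vertical line. The groups do not overlap for Acat2, Mvk, Pmvk, Mvd and Fdps, and they overlap for Hmgcs1, Idi1 and Ggps1.

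Levels of different genes were compared per length, on the authors' FPKM values. Fdps led with a mean of 850.4 FPKM in controls and 799.8 FPKM with RBM25, followed by Acat2 (317 and 290.5 FPKM), Mvd (119 and 104 FPKM), Hmgcs1 (103 and 99.3 FPKM), Mvk (58.9 and 54.3 FPKM), Pmvk (49.5 and 46.1 FPKM), Idi1 (41.2 and 42.9 FPKM) and Ggps1 (1.06 and 1.03 FPKM). In the controls Fdps ranked 116 and Acat2 ranked 252 of the 20395 genes listed, while Ggps1 ranked 10088. The order was the same in both groups. Over the 6 libraries together only the ranges of the neighbours Mvd and Hmgcs1 overlapped, because Mvd with RBM25 (102 to 105 FPKM) reached the level of Hmgcs1 in controls (101 to 104 FPKM). Within each group the ranges of these neighbours did not overlap. The distance from Mvd to Hmgcs1 was 1.16-fold in controls and 1.05-fold with RBM25.

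Fdps alone made up 55.2 ± 0.63% of the summed FPKM of the 8 in controls and 55.6 ± 0.33% with RBM25 (SD, n = 3); the ranges of its share overlapped, at 54.5% to 55.7% in controls and 55.4% to 56.0% with RBM25. The reads of all 8 together were 0.282% to 0.284% of each control library and 0.256%, 0.269% and 0.274% of RBM25 libraries 1, 2 and 3. The gap of 38.9-fold between Idi1 and Ggps1 in controls depends on the length the authors used. The length implied by reads and FPKM was 11811 bases for Ggps1 and 3096 bases for Idi1, against 1298 to 4360 bases for the 7 enzymes other than Ggps1.

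**Figure D2:**
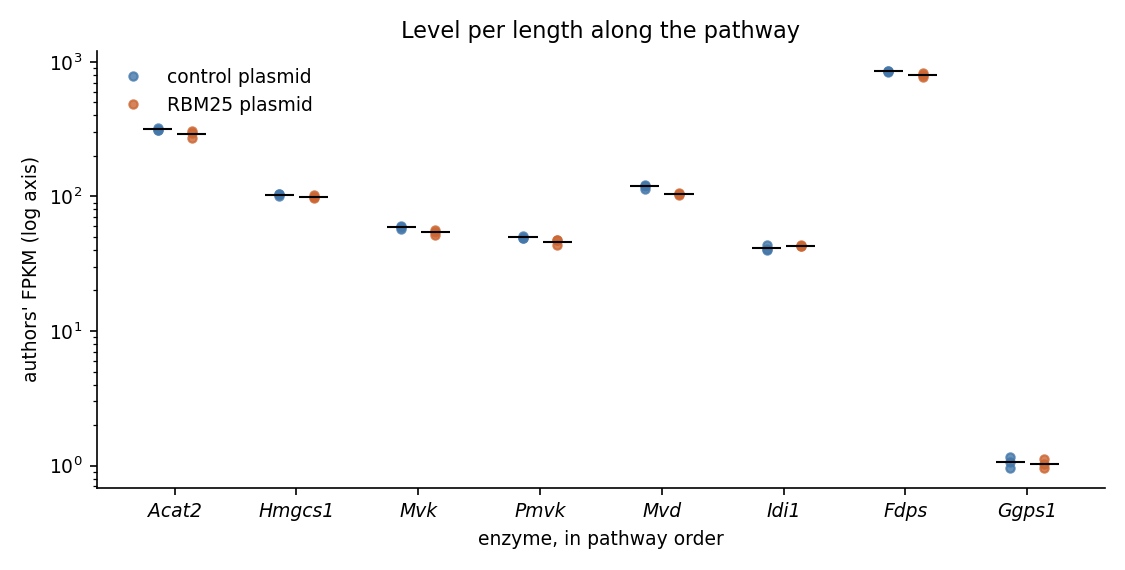
The authors' FPKM value (y axis, log scale) is plotted for the 8 enzymes in pathway order, with 1 point per library and the group mean as a line. Fdps is the highest (850.4 FPKM in controls) and Ggps1 the lowest (1.06 FPKM), and the groups lie close together beside the distance between enzymes.

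The RBM25 libraries differed among themselves in how far the enzymes lay below the controls. The mean log2 difference of the 8 from their control means was -0.12, -0.053 and -0.073 in RBM25 replicates 1, 2 and 3. The 3 controls were at 0.0085, 0.021 and -0.029. Replicate 1 had the lowest level of 6 enzymes within its group (Acat2, Hmgcs1, Mvk, Pmvk, Mvd and Fdps) and, by a narrow margin, of Idi1. For Mvd the 3 libraries differed little (-0.21, -0.17 and -0.20), whereas for Acat2 they spread from -0.21 to -0.070. Without RBM25 replicate 1 the median log2 fold change of the 8 was -0.068. Without RBM25 replicate 3, a library whose counts differed more from its group than other replicates did (chi-square of 6.27 and 4.83 per degree of freedom, beside 3.23 to 3.50 for the other pairs), 4 of the 8 were called lower, namely Acat2, Mvk, Mvd and Fdps. In that fit 1.19% of genes tested were called lower.

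**Figure D3:**
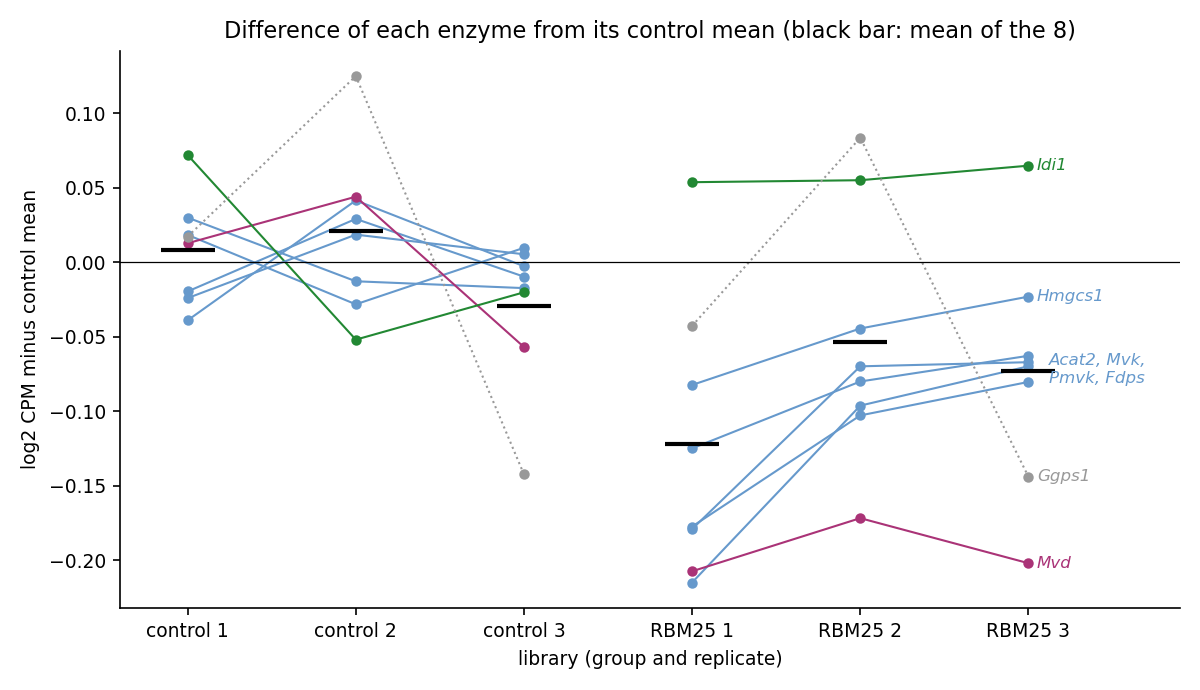
The log2 CPM of each enzyme minus its control mean (y axis) is plotted for the 6 libraries, with lines that only link the points of 1 enzyme within a group and black bars for the mean of the 8. Mvd lies lowest or next to lowest in each RBM25 library (-0.21, -0.17 and -0.20), and Idi1 stays above 0 (0.054 to 0.065).

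The genes before and after the pathway were read from lists of known roles. Of 4 genes for acetyl-CoA supply and use in lipid synthesis, none was called by edgeR, all 4 had a fold change below 0, and 3 were lower at an unadjusted p under 0.05. Among all genes tested the shares were 51.2% below 0 and 4.78% lower at that p by edgeR. The median was -0.16. The mitochondrial citrate carrier Slc25a1 was at 155, 162 and 161 CPM in controls and at 138, 133 and 152 CPM with RBM25, with no overlap (log2 fold change -0.18 ± 0.041 SE, edgeR adjusted p = 0.0582). DESeq2 called Slc25a1 lower (adjusted p = 0.0499), as 1 of 8 genes that it called lower in all. Without RBM25 replicate 3 all 4 genes of the list, which are Slc25a1, Acly, Acss2 and Acaca, were called lower by edgeR, as were 1.19% of genes tested in that fit. None of the 4 was called in the other fits with 1 library left out.

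After farnesyl diphosphate, the 11 enzymes from squalene to cholesterol that were examined all had a fold change below 0, with a median of -0.091. None was called by edgeR, and 9 were lower at an unadjusted p under 0.05, as were 4.78% of genes tested. Dhcr7, the 7-dehydrocholesterol reductase, had the smallest p of the 11. It was at 114, 125 and 116 CPM in controls and at 107, 106 and 110.0 CPM with RBM25. The groups did not overlap, but the log2 fold change of -0.13 ± 0.037 (SE) did not pass (edgeR adjusted p = 0.107). DESeq2 called 8 genes lower in all and 1 of the 11, which was Tm7sf2, a sterol reductase, at 41.3 ± 3.45 CPM in controls and 32.6 ± 4.50 CPM with RBM25 (SD, n = 3). The groups overlapped for Tm7sf2, and its log2 fold change of -0.35 ± 0.10 (SE) did not pass by edgeR (adjusted p = 0.257). Without RBM25 replicate 3, 4 of the 11 were called lower by edgeR, namely Cyp51, Dhcr7, Lss and Tm7sf2, as were 1.19% of genes tested in that fit. In the other fits with 1 library left out none of the 11 was called. In those fits 4 to 8 of the 11 were lower at an unadjusted p under 0.05 by edgeR, and the share of all genes is not given here.

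Genes that use prenyl diphosphates for ends other than sterols were read in the same way. Of 11 genes for prenyl transfer and processing of prenylated proteins none was called by edgeR or DESeq2, none passed an unadjusted p under 0.05 by either, 3 had a fold change below 0, and the median was 0.015. Its member with the smallest p was Ptar1, at 2.44 ± 0.241 and 2.93 ± 0.154 CPM (SD, n = 3; edgeR adjusted p = 0.561). Of 9 genes of the dolichol, ubiquinone and other branches none was called by either tool or passed an unadjusted p under 0.05, 5 had a fold change below 0, and the median was -0.022. Pdss1, a subunit of the enzyme that makes the ubiquinone tail, had the smallest p there (edgeR adjusted p = 0.706). The difference between these lists and the mevalonate enzymes was not tested.

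Of 10 genes listed for SREBP control, among them Srebf1, Srebf2 and Stard4, none was called by edgeR or DESeq2. At an unadjusted p under 0.05, 1 was lower by either, as were 4.78% of genes tested by edgeR. The fold change was below 0 for 8 of the 10, with a median of -0.047. The 1 gene was Srebf2, which encodes SREBP2, at 171, 172 and 169.7 CPM in controls and 161, 159 and 162 CPM with RBM25. All RBM25 libraries were lower, but the log2 fold change of -0.091 ± 0.031 (SE) did not pass (edgeR adjusted p = 0.229). Of 7 tested genes among the mitochondrial paralogs and ketone-body enzymes none was called by edgeR or DESeq2, and 1 was lower at an unadjusted p under 0.05 by either. It was Aacs, which activates acetoacetate in the cytosol for lipid synthesis, at 147, 145 and 142 CPM in controls and 128, 130 and 137 CPM with RBM25 (a log2 difference of -0.14 ± 0.034 SE, adjusted p by edgeR 0.06). Acat1, the mitochondrial counterpart of Acat2, had means of 69.3 and 70.3 CPM (a log2 difference of 0.020, adjusted p by edgeR 0.9).

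**Figure D4:**
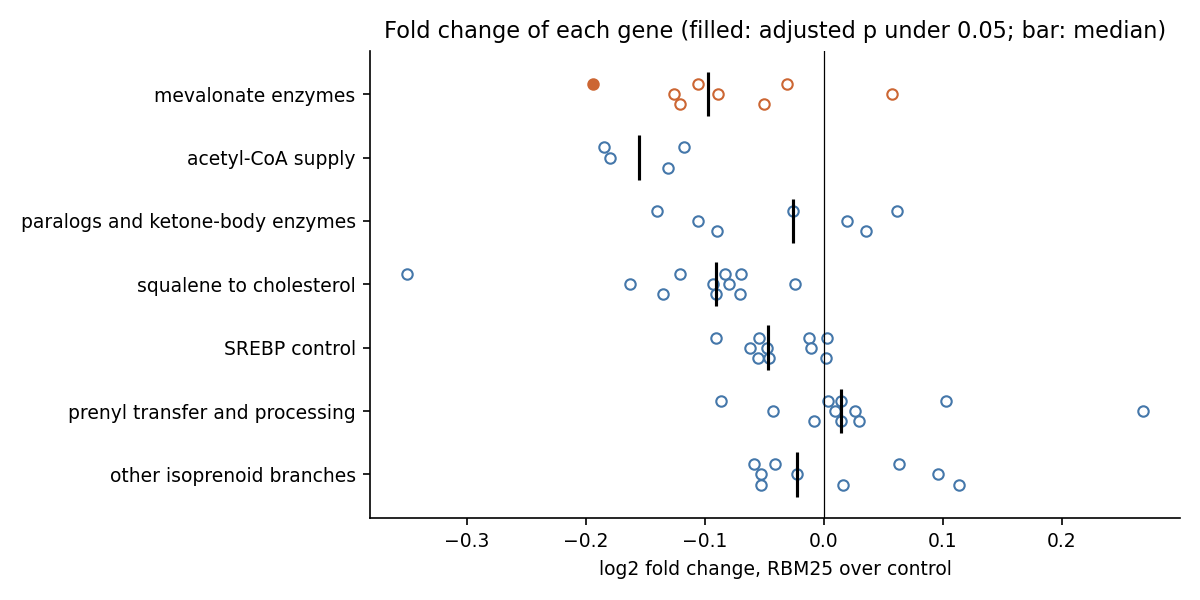
The log2 fold change of RBM25 over control (x axis) is plotted for each tested gene of 7 groups, with filled points for an edgeR adjusted p under 0.05 and a bar at the group's median. Mvd is the filled point, and the medians are -0.097 for the mevalonate enzymes, -0.091 from squalene to cholesterol and 0.015 for prenyl transfer.

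Neighbours on the chromosome were taken from RefSeq's genes on the assembly GRCr8, where no strand is given, as genes that overlap an enzyme or lie less than 1000 bases from it. Mvk lies next to Mmab, which makes adenosylcobalamin. Mmab was at 20.3, 21.7 and 20.3 CPM in controls and at 15.3, 17.2 and 19.5 CPM with RBM25. The groups did not overlap but the log2 fold change of -0.26 ± 0.076 (SE) did not pass (edgeR adjusted p = 0.124). Cyba, next to Mvd, was at a mean of 102 CPM in controls and 99.4 CPM with RBM25 and did not pass (log2 fold change -0.041 ± 0.035 SE, adjusted p by edgeR 0.715). Rusc1 beside Fdps and Arid4b and Tbce beside Ggps1 had fold changes above 0 and did not pass (edgeR adjusted p = 0.838, 0.473 and 0.51).

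Wdr37 overlaps Idi1 and was at 7.21 and 7.67 CPM, against 128 and 133 CPM for Idi1. The non-coding LOC102553528 overlaps Acat2 and was at 1.31 and 1.36 CPM. Without the strand used in counting, reads of overlapping genes cannot be told apart, but these neighbours had far fewer reads than the enzymes. Rows described as close copies of Acat2 (Acat2l1 and 2 more) held at most 0.0325% of its reads each.

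The genes whose pattern over the 6 libraries was most like that of the 8 enzymes were found by the root mean square distance between log2 CPM profiles, each centred on its own mean. The 10208 genes compared were tested genes with a proper symbol and a mean level at or above a set floor. Among them the nearest to the enzymes' mean profile were Snx1 (distance 0.010), Gpnmb (0.013), Nek9 (0.013), Gtf3c4 (0.013) and Slc6a8 (0.014). None of the 5 passed the test, with edgeR adjusted p from 0.333 to 0.549. Each enzyme was also set against the mean of the other 7. Fdps and Pmvk lay closest to it (distance 0.026 and 0.030), with 0.813% and 2.17% of genes compared lying nearer. Mvd (0.067), Idi1 (0.095) and Ggps1 (0.10) lay farthest, and 42%, 59.3% and 70.5% of genes compared were nearer than they were. The distance takes in the size of a change and counting noise, so it does not measure shared variation alone. Counting alone gives Ggps1 a coefficient of variation of 5.22%.

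**Figure D5:**
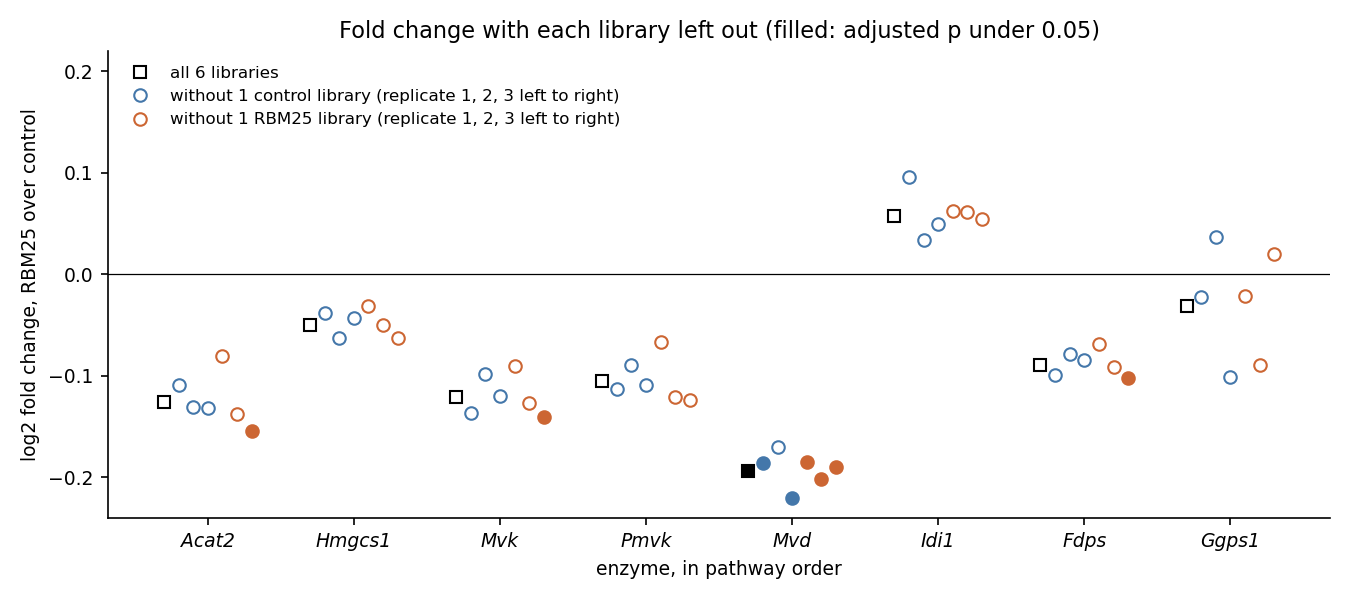
The log2 fold change of each enzyme (y axis) is plotted from all 6 libraries (square) and with 1 library left out (circles, replicates 1, 2 and 3 from left to right in each group), filled where the edgeR adjusted p was under 0.05. Mvd is filled in 5 of the 6 fits without 1 library, and Acat2, Mvk and Fdps are filled only without RBM25 replicate 3.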

How the data were processed

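RNA-seq of 6 H9C2 libraries was used. The authors deposited unnormalized whole-number read counts per gene, and FPKM values that they scaled by length and depth and rounded to 2 decimals. The submitters' processing notes name HISAT2, DESeq2 and the build mRatBN7.2. Their versions, the read counter, the annotation and whether strand was used were not given in the sources used here. The test was edgeR 4.0.16 (R 4.3.3) on the counts (filterByExpr with a minimum count of 10, TMM factors of 0.996 to 1.01, robust quasi-likelihood fit with group as the only term, Benjamini-Hochberg adjustment over 12882 genes). The SE is the size of the log2 fold change divided by the square root of F. CPM is scaled by the TMM factors. DESeq2 1.42.0 and limma 3.58.1 (limma-trend on log2 FPKM with a pseudocount of 0.1 or 1) were alternatives. The test was tried on simulated counts. The outcome is not given here, and no result rests on it. The members and gene lists were chosen with earlier results of these data known, so no list was tested. The genes named are the 8 enzymes, Rbm25, up to 3 called members of each list or the 1 with the smallest p, chromosome neighbours, and the 5 nearest profiles; other genes were named after their values were seen. No pair of replicates agreed within sampling noise (chi-square per degree of freedom of 3.23 to 6.27). Some items are not reported here.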

Additional observations from a re-analysis of the deposited data

How the results depend on the processing

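Over all genes 52 were called changed. The count was 205 with no filter on low counts, 436 with the replicate number as a block, 4 and 2 in limma-trend on log2(FPKM + 0.1) and log2(FPKM + 1), 6 in limma-trend with no filter, and 5 (without control replicate 2) to 352 (without RBM25 replicate 3) with 1 library left out; the cause was not tested. The number of the 8 enzymes called lower was 2 with no filter, 4 with the replicate block (Acat2, Mvk, Mvd and Fdps), 0 in the 3 limma fits, where 5 were lower at an unadjusted p under 0.05, and 0 to 4 with 1 library left out. Lower calls over all genes also moved, from 6 in the main fit to 56 with no filter and 178 with the replicate block. They were 0 or 1 in the limma fits and 0 to 156 with 1 library left out. Mmab and Aacs were called lower with no filter (adjusted p by edgeR 0.0264 and 0.0195) and with the replicate block (0.00768 and 0.000259). They were also called without RBM25 replicate 3 (0.00229 and 0.000935). Neither was called in the other alternatives. The share of all genes lower at an unadjusted p under 0.05 in the limma fits is not given here. Whether equal replicate numbers pair the libraries is not stated. The deviations of same-numbered libraries correlated at 0.0544, -0.0675 and -0.00594. With 3 libraries a group these values cannot show whether the libraries were paired. The log2 fold change of Mvd was -0.193, -0.192 and -0.193 in the limma fits (adjusted p = 0.173, 0.204 and 0.302) and -0.22 to -0.17 with 1 library left out, and it stayed below 0 in all 17 alternatives, whose adjusted p ran from 5.17e-08 to 0.302. The median of the 8 was -0.113 to -0.0678 with 1 library left out. Idi1 stayed above 0 in all 17 (0.033 to 0.096). With 1 library left out Ggps1 ranged from -0.101 to 0.0362 and LOC102553528 from -0.0902 to 0.192. Ggps1 turned to 0.0362 and 0.0195 without control replicate 2 and RBM25 replicate 3, and LOC102553528 to -0.0902, -0.0461 and -0.0628 without control replicate 1, RBM25 replicate 1 and RBM25 replicate 3. DESeq2, offsets by gene length, RLE, upper-quartile or total-count scaling and a filter of 1 CPM changed no call of an enzyme. The 5 enzymes with no overlap were also 5 on library totals alone and on FPKM, both tried after seeing the data. Depth limits Ggps1 most.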
